A study of Canis lupus familiaris and Dasypus novemcinctus and Ornithorhynchus anatinus with 3 samples.

Results

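The genes described here carry out and control the first steps of branched-chain amino acid breakdown, measured in the lining of the uterus (endometrium) of pregnant dog, armadillo and platypus. There are 7 of them, BCAT1, BCAT2, BCKDHA, BCKDHB, BCKDK, DBT and PPM1K. They were found by gene symbol, all 7 in the dog table of 19290 genes, 5 in the armadillo table of 12335 genes and 5 in the platypus table of 18481 genes. The set was chosen by the dog and armadillo levels of BCAT1, which had the largest dog over armadillo fold of all genes matched between those tables. The dog to armadillo values of BCAT1 are therefore given as a description, and the question asked of the other 6 genes is whether they stood apart in the same way.

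Messenger RNA was sequenced from 1 library of pregnant endometrium per species. The groups are pregnant Canis lupus familiaris, pregnant Dasypus novemcinctus and pregnant Ornithorhynchus anatinus, with no treatment named. Dog and armadillo are placental mammals and platypus lays eggs. The labels give neither the stage of pregnancy nor the age or number of animals, and tissue from all of them was labelled pregnant endometrium. With 1 library per species no difference has a replicate check, no p-value is given, and the 95% intervals below cover counting error only. Copies of a molecule made by PCR were not marked by identifiers, so counting error itself may be larger than these intervals show.

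Leucine, isoleucine and valine are broken down by a shared pair of opening reactions. First, a branched-chain aminotransferase moves the amino group to alpha-ketoglutarate, which yields glutamate and a branched-chain keto acid. This step is reversible and is made by BCAT1 in the cytosol and by BCAT2 in mitochondria. Second, the mitochondrial branched-chain keto acid dehydrogenase complex removes carbon dioxide from the keto acid and commits it to breakdown. The complex is built on a core of the transacylase DBT, to which a decarboxylase made of BCKDHA and BCKDHB and the shared subunit DLD bind. The kinase BCKDK switches the complex off by phosphorylating BCKDHA, and the phosphatase PPM1K switches it on again. BCAT1 is known as the form of few adult tissues, and of many tumours, while BCAT2 is found widely.

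Levels are given as normalised CPM, meaning reads scaled to the library total (CPM) and then adjusted so that the typical gene is level between libraries. The dog library held 13625465 reads, the armadillo library 13218476 and the platypus library 2243556, so that a count of 0 in platypus allows up to 1.60 normalised CPM (3 reads). A gene was called different where its level, after adding 1 normalised CPM, was at least 4-fold higher in 1 library and reached 5 normalised CPM there. Levels are not corrected for gene length. Where gene models differ in length between species, that difference enters the fold.

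The libraries also differed in markers of cell types. Over markers listed in both dog and armadillo, epithelial genes (4 of 9) summed to 2072 normalised CPM in dog and 556 in armadillo, and genes of dividing cells (3 of 7) to 933 and 72.2. In the other direction, smooth muscle genes (2 of 7) summed to 18.6 and 21732, stromal genes (2 of 8) to 499 and 7930, endothelial ESAM (1 of 7) stood at 8.25 and 444, and leukocyte genes (4 of 7) summed to 11.7 and 227. Trophoblast genes (5 of 8) summed to 23.2 and 75.6, with TFAP2C (1.70 and 45.0) and TFAP2A called higher in armadillo. Of these 5, only PGF was higher in dog (16.7 and 3.997), and it was not called. The red blood cell gene EPB42 (1 of 6) stood at 0.468 and 0.151. Over markers listed in all 3 tables, platypus held 31.0 for epithelium (4 of 9) and 292 for dividing cells (3 of 7). Its stromal genes (2 of 8) summed to 1853, beside 499 in dog. Of these, LUM was higher in platypus (1500 against 72.8 in dog), while COL3A1 was not (353 against 426). Smooth muscle MYH11 (1 of 7) stood at 332 in platypus, beside 1.29 in dog and 10768 in armadillo. MYL9 (3435 in platypus and 17.7 in dog) and CNN1 (1378 and 0.175) are not listed in armadillo. ACTA2 (13562 in platypus and 161 in armadillo) and DES (1191 and 3150) are not listed in dog. Among trophoblast genes, GATA3 (12.9 in dog and 1.07 in platypus) and PGF (16.7 and 0.535) were called higher in dog. HAND1 (1.23 and 13.9) was called higher in platypus. Platypus listed ST14 at 0 for epithelium, TOP2A, CCNB1 and PCNA for dividing cells, VWF, TEK, KDR and ESAM for endothelium, GCM1, ELF5, TFAP2C, TFAP2A and CDX2 for trophoblast, and ALAS2, SLC4A1 and EPB42 for red blood cells. Endothelial CDH5 was level, at 24.1 in platypus and 24.7 in dog, and FLT1 stood at 3.21 in platypus (6 reads). Of 7 genes chosen later as markers of the uterus, 3 were listed in both dog and armadillo and summed to 40.1 and 34.8. HAND2 was called higher in dog (19.7 and 3.62), while EMX2 (19.9 and 29.9) and FOXA2 (0.526 and 1.28) were lower there and not called. The 2 listed in all 3 tables summed to 20.4 in dog, 31.2 in armadillo and 144 in platypus. Against dog, ESR1 (6.55 in dog and 1147 in platypus) and FOXA2 (69.0 in platypus) were called higher in platypus. The progesterone receptor gene PGR was listed only in platypus, at 349. The part of these cell type differences in the results below was not tested, and in such bulk samples fewer cells of a type and less RNA per cell cannot be told apart.

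BCAT1 was one of the most abundant genes of the dog library and was all but without reads in the other libraries. The dog library held 35594 BCAT1 reads (ENSCAFG00000011487), equal to 2612 CPM before scaling and 2082 normalised CPM (95% interval 2060.5 to 2104). Armadillo held 1 read (ENSDNOG00000005608), or 0.0754 normalised CPM (95% interval 0.00191 to 0.420). Platypus listed BCAT1 at 0 (ENSOANG00000013411). BCAT1 was picked for its dog and armadillo levels, so these intervals describe its values and are no check of the difference. By reads, BCAT1 ranked 15 of 19290 dog genes and took 0.261% of all dog reads.

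**Figure D1:**
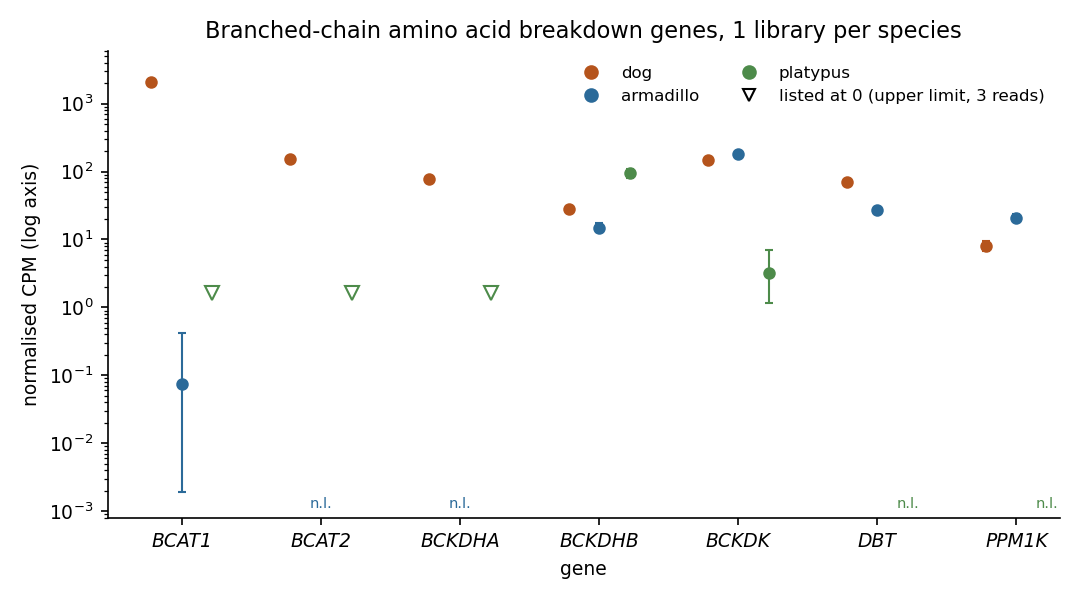
Levels of the 7 genes in normalised CPM on a log axis, 1 point per species and gene, with 95% counting intervals. Open triangles mark genes listed at 0 in platypus, drawn at the limit of 3 reads (1.60), and n.l. marks genes not listed in a table. BCAT1 in dog (2082) stands above every other point.

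The ratio of dog to armadillo was 27610 for BCAT1, with a counting interval of 4955 to 1090584 because the armadillo value rests on 1 read. It headed the order of 8908 matched genes both by this ratio and on the log2 scale after adding 1 normalised CPM, where the difference was 10.92. The next genes in that order were AKR1E2, an aldo-keto reductase gene (24540 dog reads), and RPL10, a ribosomal protein gene that every cell uses (16514 dog reads). Armadillo held 1 read of each. Among matched genes, 161 had 1 read in armadillo, and their median in dog was 1 read. Only 6 of the 161 had more than 1000 dog reads, namely BCAT1, AKR1E2, RPL10, FXYD4, DAB2IP and FAM107B. Since RPL10, used in every cell, also stood at 1 armadillo read, the armadillo value of BCAT1 is not read as silence of the gene.

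Over platypus, the dog level of BCAT1 was at least 1297-fold higher, taking 3 reads as the limit in the platypus library. Between armadillo (1 read) and platypus (0 reads) both values lay below that limit, so no fold is given. In platypus 7828 genes (42.4%) were listed at 0. Among the 427 genes listed in platypus that stood at 200 normalised CPM or more in dog, 63 (14.8%) were at 0 in platypus, BCAT1 among them.

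BCAT2, the mitochondrial aminotransferase, was listed with reads in dog alone. Dog held 2576 reads (ENSCAFG00000003901), or 150.7 normalised CPM (95% interval 145 to 157). Platypus listed BCAT2 at 0 (ENSOANG00000012856), so dog was at least 93.9-fold higher on the same limit. The armadillo table does not list BCAT2. That table holds only genes with at least 1 read, so absence from it is not read as a count of 0. Of the 2670 dog genes between 50 and 200 normalised CPM, 21.3% were not listed in armadillo by symbol, and 17.4% of the 1902 that platypus listed were at 0 there. BCAT2 falls in both shares.

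Of the dehydrogenase complex, BCKDHB and DBT could be compared between dog and armadillo, and neither was called. BCKDHB, the beta subunit of the decarboxylase, had 481 reads in dog (ENSCAFG00000002848), 199 in armadillo (ENSDNOG00000005629) and 177 in platypus (ENSOANG00000001286). These counts equal 28.1 (95% interval 25.7 to 30.8), 15.0 (95% interval 13.0 to 17.2) and 94.7 (95% interval 81.2 to 109.7) normalised CPM. The order was platypus, dog, armadillo, and no neighbouring intervals overlapped. Dog was 1.87-fold above armadillo (95% interval 1.59 to 2.22), short of the 4-fold limit. Platypus was 3.37-fold above dog (95% interval 2.82 to 4.01), also short of it, and 6.31-fold above armadillo (95% interval 5.12 to 7.76), which passed. BCKDHB was the only gene of the 7 that was highest in platypus among those listed there.

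DBT, the transacylase core, had 1209 reads in dog (ENSCAFG00000020011) and 364 in armadillo (ENSDNOG00000014845), or 70.7 (95% interval 66.8 to 74.8) and 27.4 (95% interval 24.7 to 30.4) normalised CPM. Dog was 2.58-fold higher (95% interval 2.29 to 2.90), below the 4-fold limit. DBT is not listed in platypus. BCKDHA, the alpha subunit of the decarboxylase and the site of regulation, had 1317 reads in dog (ENSCAFG00000005006), or 77.0 normalised CPM (95% interval 72.9 to 81.3). It is not listed in armadillo and was listed at 0 in platypus (ENSOANG00000008790), which puts dog at least 48.0-fold higher on the limit of 3 reads. Platypus thus held 177 reads of 1 decarboxylase subunit and 0 of its partner. Its table also holds DLD, the subunit shared with other complexes, at 49 reads or 26.2 normalised CPM. DLD is not listed by symbol in dog or armadillo.

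The switches of the complex differed from BCAT1 in their pattern. BCKDK, the inhibiting kinase, was nearly level in the placental mammals and scarce in platypus. It had 2492 reads in dog (ENSCAFG00000016827), 2413 in armadillo (ENSDNOG00000017081) and 6 in platypus (ENSOANG00000004846). The levels were 146 (95% interval 140.1 to 152), 182 (95% interval 175 to 189) and 3.21 (95% interval 1.18 to 6.99) normalised CPM. Armadillo was 1.25-fold above dog (95% interval 1.18 to 1.32), but without scaling the sides turned, with a log2 difference of dog over armadillo of 0.0027, and with totals over genes matched in all 3 tables that difference was 0.07. Against platypus, BCKDK was 45.4-fold higher in dog (95% interval 20.8 to 124) and 56.7-fold higher in armadillo (95% interval 26.0 to 155). These comparisons share the platypus library.

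PPM1K, the activating phosphatase, went the other way from DBT and BCKDHB. It had 136 reads in dog (ENSCAFG00000009605) and 279 in armadillo (ENSDNOG00000005562), or 7.96 (95% interval 6.67 to 9.41) and 21.0 (95% interval 18.6 to 23.7) normalised CPM. Armadillo was 2.64-fold higher (95% interval 2.15 to 3.27), below the 4-fold limit. PPM1K is not listed in platypus.

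The comparison of dog and armadillo covers 5 of the 7 genes, since BCAT2 and BCKDHA are not listed in armadillo. Of these 5, 1 was called higher in dog, where 9.76% of all matched genes were, and 0 were called higher in armadillo, where 15.2% were. The 1 called gene is BCAT1, whose fold chose the set, so nothing is read from that count. On the log2 scale the other 4 ran from -1.30 for PPM1K over -0.32 for BCKDK and 0.86 for BCKDHB to 1.33 for DBT. In the order of all 8908 genes DBT ranked 1525, BCKDHB 2190, BCKDK 4786 and PPM1K 6664. The shares of genes above them were 17.1%, 24.6%, 53.7% and 74.8%. These 4 were thus spread widely, with DBT and BCKDHB toward the dog end and PPM1K toward the armadillo end. The median over these 4 was 0.27, and that of all matched genes was -0.20, or -0.12 without genes at 0. Armadillo lists 0 genes at 0, where dog lists 4206 and platypus 7828. Matched genes can thus be at 0 only in the other library, which can raise the share of all genes called higher in armadillo. All 4 reached 2 CPM in both libraries, so a filter at that level could not change their median of 0.27 or their 0 calls. With that filter the median of the 6669 genes left was -0.00043, with 664 called higher in dog and 814 in armadillo.

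**Figure D2:**
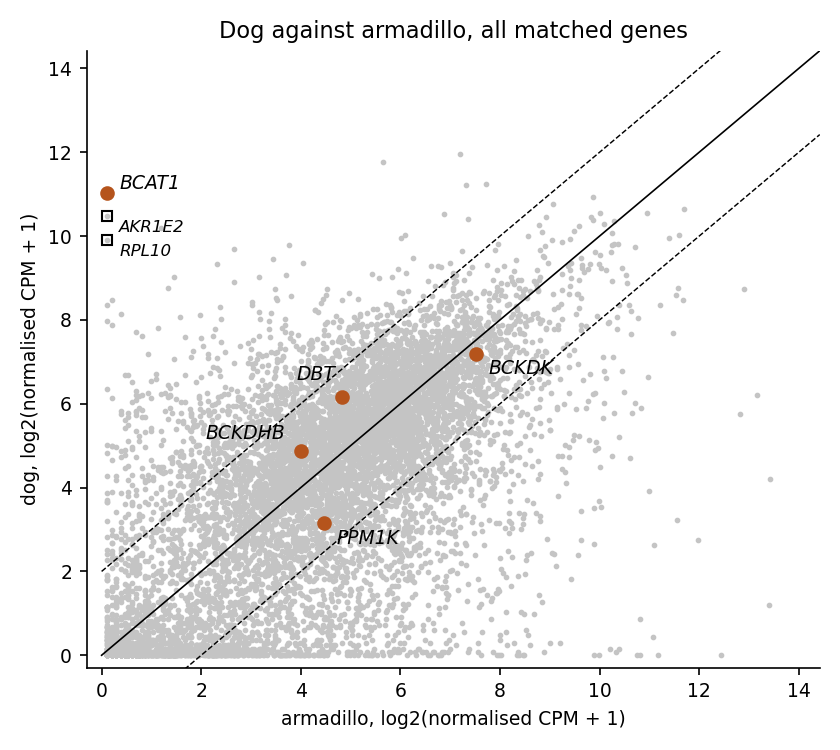
Dog (vertical) against armadillo (horizontal) as log2 of normalised CPM + 1, with 1 grey point for each of 8908 matched genes, a solid line at equal levels and dashed lines at 4-fold. BCAT1 lies at the upper left beside AKR1E2 and RPL10, and BCKDHB, BCKDK, DBT and PPM1K lie between the dashed lines.

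Against platypus the 7 genes differed mostly through zeros. The dog level of BCAT1 helped to choose the set, so its fold over platypus is a description too and is left out of the counts of dog over platypus. Of the other 4 genes matched there, 3 were called higher in dog (BCAT2, BCKDHA and BCKDK), where 27.3% of all matched genes were. In platypus 0 were called higher, where 13.5% of all were. BCAT2 and BCKDHA were listed at 0 in platypus. The median log2 fold of the 4 was 5.70, or 5.01 with the zeros set to 3 reads, and that of all matched genes was 0.25. In armadillo over platypus 3 genes were matched, BCAT1 among them, and BCKDK was called higher in armadillo (34.0% of all genes) and BCKDHB higher in platypus (13.2%). BCAT1, whose armadillo level helped to choose the set and which held 1 and 0 reads here, is left out of the median. The other 2 lay far apart, at log2 folds of 5.44 for BCKDK and -2.58 for BCKDHB. Their median was 1.43, against 0.89 for all matched genes.

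Within the dog library the deposited relative abundance allows genes to be compared per length, since it is proportional to reads divided by a gene length. On this scale, whose unit the header does not state, BCAT1 stood at 1130, rank 26 of 19290 genes and 146 times the median dog gene with reads. BCKDK stood at 78.1, BCAT2 at 74.6, DBT at 37.6, BCKDHA at 27.1, BCKDHB at 18.5 and PPM1K at 4.95. Per length, the cytosolic aminotransferase was thus 15.2-fold above its mitochondrial counterpart (95% interval 14.6 to 15.8). Among subunits, BCKDHA was 1.46-fold above its partner BCKDHB (95% interval 1.31 to 1.62) and the core gene DBT was 1.39-fold above BCKDHA (95% interval 1.29 to 1.505). The kinase was 15.8-fold above the phosphatase (95% interval 13.3 to 18.9). BCKDK and BCAT2 did not differ beyond their counting error, at a ratio of 1.05 (95% interval 0.990 to 1.11). PPM1K was the only one of the 7 below the median dog gene, at 0.638 times its level.

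The sister complex that burns pyruvate is built in the same way, and its genes give a scale for these values in dog. Per length, PDHA1, the pyruvate counterpart of BCKDHA, was 4.43-fold above it (95% interval 4.16 to 4.72), and PDHB was 1.96-fold above BCKDHB (95% interval 1.76 to 2.18). The core genes did not differ beyond counting error, with DLAT at 0.976 of DBT (95% interval 0.909 to 1.05). The kinases of the pyruvate complex stood at 12.8 for PDK1, 10.6 for PDK2, 7.04 for PDK3 and 2.76 for PDK4, all below BCKDK at 78.1. Their phosphatases PDP2 (21.1) and PDP1 (7.50) stood above PPM1K.

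**Figure D3:**
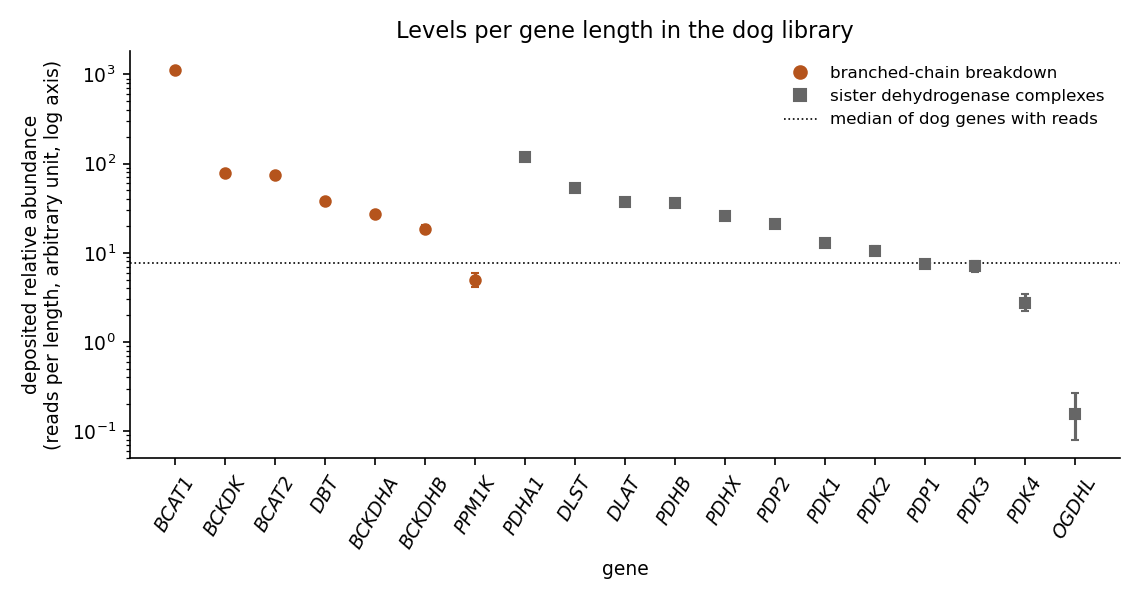
Deposited relative abundance of single genes in the dog library (reads per gene length, arbitrary unit, log axis) with 95% counting intervals. Circles are the branched-chain genes, squares those of sister dehydrogenase complexes, and the dotted line is the median of dog genes with reads. BCAT1 (1130) is highest and PPM1K (4.95) is the only circle under the line.

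Genes of the later steps were counted in lists that had been drawn up with earlier results of these data known. Of 19 downstream enzymes 16 were matched between dog and armadillo, 3 of them (18.8%) were called higher in dog and 1 (6.25%) in armadillo, beside 9.76% and 15.2% of all matched genes. In the leucine branch the 2 subunits of methylcrotonyl-CoA carboxylase were higher in dog: MCCC2 at 163 normalised CPM against 15.5, or 10.5-fold (95% interval 9.13 to 12.2), and MCCC1 at 104 against 19.3, or 5.38-fold (95% interval 4.72 to 6.16). IVD, which acts just before them, stood at 176 in dog and 401 in armadillo and was not called.

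In the shared propionate branch PCCB, the beta subunit of propionyl-CoA carboxylase, was 6.42-fold higher in dog (95% interval 5.44 to 7.62), at 77.0 against 12.0. Its partner PCCA stood at 31.1 and 37.5, on either side of level. The other genes of that branch, including MUT (61.4 and 45.5), were not called. In the isoleucine and valine branch 0 of 7 genes were called higher in dog. HIBADH, a dehydrogenase of valine breakdown, was 8.62-fold higher in armadillo (95% interval 6.91 to 10.8), at 46.4 against 5.38. The thiolase gene ACAT1 (182 in dog and 246 in armadillo) and the hydratase gene ECHS1 (146 and 193) were not called. The median log2 fold of dog over armadillo was 0.59 over the 16 genes, against -0.20 for all matched genes.

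**Figure D4:**
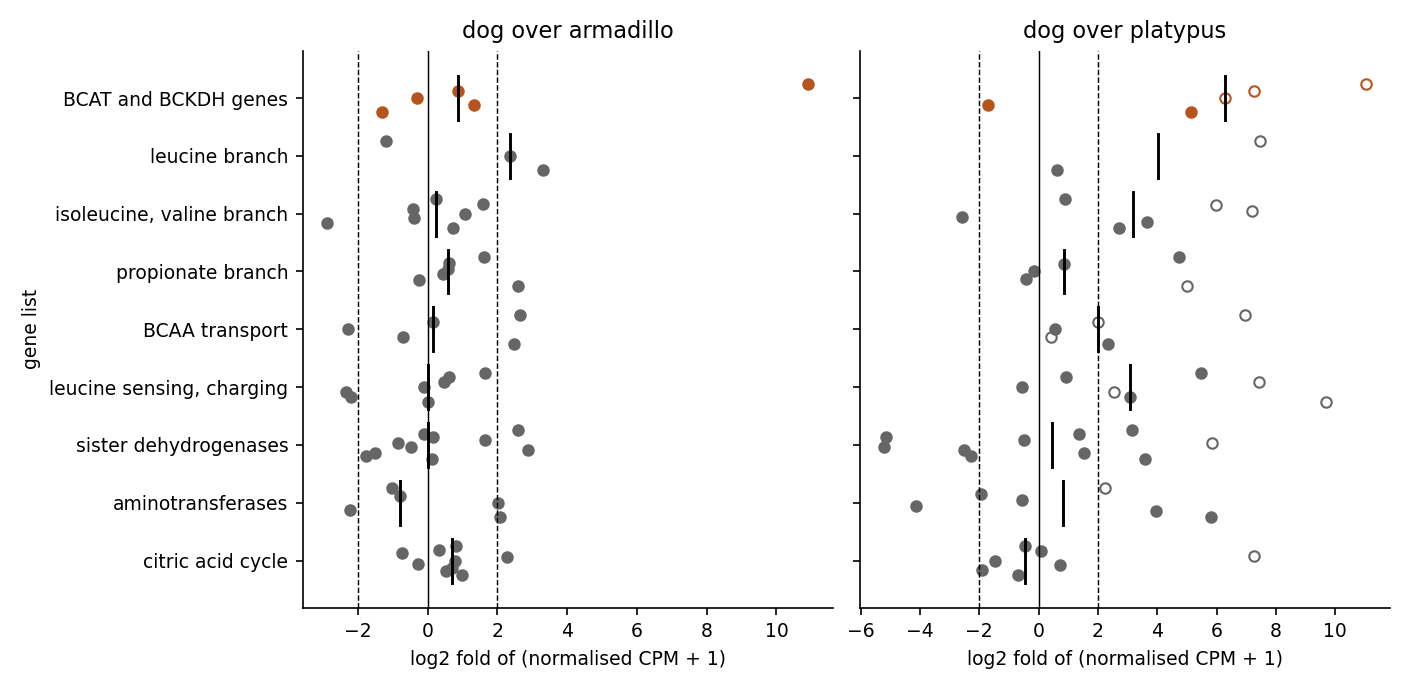
Log2 fold of single genes (horizontal, normalised CPM + 1) by gene list, dog over armadillo on the left and dog over platypus on the right. Bars mark list medians, dashed lines 4-fold, and open circles genes with 0 reads in 1 of the 2 libraries. BCAT1 lies apart from every list on the left, and on the right most values beyond 5 are open circles.

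In platypus the downstream genes ranged from zeros over a few reads to clear levels. Of 13 matched with dog, 7 were called higher in dog and 1 (HIBADH) in platypus, beside 27.3% and 13.5% of all matched genes, while 4 genes among the 7 (IVD, ECHS1, ALDH6A1 and PCCA) were listed at 0 in platypus. The others called higher in dog were HSD17B10 at 6.76-fold (95% interval 4.87 to 9.67), HIBCH at 16.3-fold (95% interval 7.47 to 44.6, 6 platypus reads) and MCEE at 38.5-fold (95% interval 15.0 to 141.5, 4 platypus reads). HIBADH was 6.96-fold higher in platypus than in dog (95% interval 5.02 to 9.60). MCCC1 (67.9), ACAD8 (62.6) and MUT (83.4) had clear platypus levels within 4-fold of both placental mammals. With armadillo, 12 were matched, and 6 were called higher in armadillo (IVD, ECHS1, HIBCH, ALDH6A1, PCCA and MCEE) and 0 in platypus, beside 34.0% and 13.2% of all matched genes. Over the 9 lists, the 7 genes included, platypus listed 60 of 85 genes, and 16 were at 0. These 16 include LARS and VARS, whose enzymes load leucine and valine onto transfer RNA in every cell, so a gene listed at 0 in platypus is not taken as silent.

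Transporters of branched-chain amino acids differed by gene. SLC7A8, a light chain that exchanges neutral amino acids, was 5.70-fold higher in dog than in armadillo (95% interval 5.09 to 6.42), at 143 against 25.1 normalised CPM. SLC25A44, the carrier of branched-chain amino acids into mitochondria, was 8.29-fold higher in dog (95% interval 5.85 to 12.1), at 21.9 against 2.64. SLC43A1 was 6.19-fold higher in armadillo (95% interval 4.56 to 8.55). SLC3A2, the heavy chain that SLC7A8 and SLC7A5 share, was close, at 124 in dog and 111 in armadillo, and was listed at 0 in platypus. SLC7A5 stood at 153 in armadillo and 7.49 in platypus and is not listed by symbol in dog. In all, 2 of 5 matched genes were called higher in dog and 1 in armadillo, beside 9.76% and 15.2% of all matched genes.

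Among genes that sense or load these amino acids, 0 of 7 were called higher in dog and 2 in armadillo, beside 9.76% and 15.2% of all matched genes. The leucine sensor gene SESN2 was 5.39-fold (95% interval 4.23 to 6.93) and its relative SESN1 5.97-fold (95% interval 4.68 to 7.69) higher in armadillo. Of the genes for loading enzymes, VARS stood at 831 in dog, and IARS at 350 in dog, 111 in armadillo and 6.95 in platypus. SESN3 stood at 12.1 in dog, 12.0 in armadillo and 1 read in platypus.

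Of 12 genes of glutamate and other aminotransferases, 5 were matched between dog and armadillo, and 2 of these were called higher in dog and 1 in armadillo, beside 9.76% and 15.2% of all matched genes. GOT1 and GOT2 are the cytosolic and mitochondrial forms of aspartate aminotransferase, a pair laid out like BCAT1 and BCAT2. GOT1 was 4.24-fold higher in dog than in armadillo (95% interval 3.70 to 4.88), whereas GOT2 was 4.85-fold higher in armadillo (95% interval 4.41 to 5.33). In platypus GOT2 reached 581 normalised CPM, 17.9-fold above dog (95% interval 16.1 to 19.9), and GOT1 was 6.26-fold above armadillo (95% interval 5.19 to 7.54). GPT2, the mitochondrial alanine aminotransferase gene, was 4.44-fold higher in dog than in armadillo (95% interval 3.79 to 5.21). PSAT1, the aminotransferase of serine synthesis, stood at 203 in dog and 2.67 in platypus (5 reads) and is not listed in armadillo. GLUL, which makes glutamine from glutamate, stood at 358 in armadillo and 355 in platypus. GPT (22.8 in dog against 1 platypus read) and AADAT (8.60 in armadillo, listed at 0 in platypus) were also called.

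Between dog and armadillo the sister complexes and the citric acid cycle were mostly not called, as were 6681 of all 8908 matched genes, with 9.76% of all called higher in dog and 15.2% in armadillo. Of 10 matched genes of the sister complexes, 2 were called higher in dog and 0 in armadillo: DLAT at 6.20-fold (95% interval 5.46 to 7.07) and the kinase gene PDK1. Of 9 citric acid cycle genes, only IDH3A was called, at 4.97-fold higher in dog (95% interval 4.51 to 5.48), and SUCLG1 (204 and 142) was not. The medians on the log2 scale were 0.00 and 0.70.

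Regulators of the pyruvate complex differed by gene in platypus, where BCKDK stood at 3.21. PDK1 stood at 860 normalised CPM, 38.5-fold above dog (95% interval 34.4 to 43.1), PDK2 at 108, 5.96-fold above dog (95% interval 4.97 to 7.14), and the phosphatase gene PDP1 at 88.3, 5.08-fold above dog (95% interval 4.17 to 6.17). The kinase gene PDK4 (1.07, 2 reads) and the phosphatase gene PDP2 (2.14, 4 reads) were scarce there, and PDK3 is not listed. OGDHL was also higher in platypus than in dog, at 59.4 against 0.702. DLAT, PDHX and PDP2 were called higher in dog than in platypus, PDHX with 0 platypus reads. Against armadillo, OGDH and PDHX were lower in platypus, and OGDHL and PDK1 higher. Citric acid cycle genes SUCLG1 (768) and IDH3A (499) were 5.40-fold (95% interval 5.04 to 5.79) and 13.8-fold (95% interval 12.3 to 15.4) higher in platypus than in armadillo, while IDH2 was listed at 0.

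The genes closest to BCAT1 in level over the 3 libraries included FLT3LG, SLC7A2, RSPO2 and TRIM29, by the straight-line distance between log2 levels among 5598 other genes matched in all 3 tables. Likeness over 3 libraries, with the platypus count at 0 for FLT3LG, SLC7A2 and RSPO2 and at 1 read for TRIM29, is a weak description. FLT3LG, a cytokine gene, came nearest at a distance of 1.37, with 1170.0 normalised CPM in dog and 1.28 in armadillo. SLC7A2, a transporter of cationic amino acids, stood at 647 and 3.997. RSPO2, a secreted activator of WNT signalling, and TRIM29 stood at 208 and 195 in dog.

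Only a few genes near BCAT1 on the dog chromosome could be compared. By the gene order of the dog RefSeq table, which may be of another build than the counts, the nearest genes matched in dog and armadillo were SOX5 and ETNK1 on the side before it (2 and 3 genes away) and RASSF8 and SSPN on the side after (10 and 13 genes away), so most genes between were not examined. SOX5 stood at 6.14 in dog and 8.29 in armadillo and ETNK1 at 26.3 and 5.58 normalised CPM, which passed the 4-fold limit with a log2 difference of 2.05. RASSF8 stood at 34.1 and 18.3, and SSPN at 0.468 and 4.68. None of the 4 exceeded 34.1 normalised CPM in dog, where BCAT1 reached 2082.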

How the data were processed

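Endometrial RNA was measured in 1 library each of dog, armadillo and platypus. RNA was, per the labels' protocols, column-extracted with DNase treatment and libraries followed an Illumina protocol. The submitters' processing notes name Bowtie. Its version, the genome builds, annotation and counting tool are not stated there or in the labels. Per the file headers, dog values are estimated counts per gene, deposited by the authors. In 19276 of 19290 genes they equal mapped bases divided by 34 to within 1e-06 reads, and 516 that were not whole were rounded. The authors deposited raw read counts for the other species. The dog table also holds deposited scores (mapped bases and a relative abundance). Reads over relative abundance, scaled by 1 constant fitted to that end, came within 0.1 of a whole number, taken as gene length in bases, for 100% of 5644 genes above 500 reads. The last line of the dog and armadillo tables holds totals and was left out.

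Genes were matched by upper-case symbol occurring once in a table. In dog 82 of 1347 accession names were given a symbol from the RefSeq table of assembly UU_Cfam_GSD_1.0, and 1428 UniProt entry names and 23 names turned into dates were not matched. CPM was scaled by the median of ratios, from 3496 genes that reached 2 CPM in every library (factors 0.797 dog, 0.997 armadillo, 1.20 platypus). Levels have exact Poisson intervals and folds exact intervals conditional on both counts. Calls, scaling and intervals were tested on simulated data with counting error only, drawn for well expressed genes. Genes with very few reads, and gene models that differ between species, were not covered by that test. Python 3.11.15, numpy 2.4.6, pandas 2.3.3 and scipy 1.17.1 were used.

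The 7 genes, 8 pathway lists, 8 marker lists and limits were chosen with earlier results of these data known. A list of uterine genes and 3 lists of the closing section were added after values were seen. Named genes were the 7, list genes that were called or among the 2 highest of their list, the 5 nearest BCAT1 in level, and its neighbours in fold order. Some genes that this rule names are not reported here. The nearest genes on the chromosome were added later. No sequences are shown.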

Additional observations from a re-analysis of the deposited data

How the results depend on the processing

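Over 86 member folds recomputed under other scalings, pseudocounts, filters and matching, 0 calls changed. The sign changed in 2, both of BCKDK in dog over armadillo (without scaling and with totals over matched genes), which was not called. These 86 leave out the 2-fold limit and the members that the 2 CPM filter removed. That filter removed BCAT1 from every comparison, and BCAT2 and BCKDHA from dog over platypus, so their calls could not be compared under it. Leaving scaling out moved the median log2 fold of all genes from -0.20 to 0.00 in dog over armadillo, from 0.25 to 0.61 in dog over platypus and from 0.89 to 1.06 in armadillo over platypus. The median over the 7 genes' matched members, BCAT1 included, was 0.86 as scaled above, 1.27 with totals over genes matched in all 3 tables and 0.27 with 2 CPM required in both libraries for dog over armadillo, where the filter left 0 members called, and a 2-fold limit called 3. For dog over platypus it was 6.29 as scaled above, 6.61 without scaling, 6.43 with upper-quartile scaling, 7.71 with totals over matched genes, 9.59 and 4.20 with a pseudocount of 0.1 and 5, and 1.70 with the filter, which left 2 members and 1 call. For armadillo over platypus it was 0.10 as scaled above, 0.81 with a pseudocount of 0.1 and 1.43 with the filter. Here 0.10 and 0.81 are the fold of BCAT1 itself, with 1 armadillo read and 0 platypus reads, so they say nothing of the other genes. The filter removes genes with zeros, and the pseudocount sets the size of folds against 0. Over all genes the filter gave 664 called higher in dog and 814 in armadillo, 855 in dog and 783 in platypus, and 842 in armadillo and 759 in platypus, against 869 and 1358, 2474 and 1221, and 2484 and 963. A 2-fold limit gave 1895 and 2314 in dog over armadillo, 3129 and 1934 in dog over platypus, and 3111 and 1594 in armadillo over platypus. No paired analysis was possible because each species has 1 library. At the platypus depth, the limit of 3 reads set for every zero equals 1.60 normalised CPM.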

Other observations

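Some genes that serve the same breakdown enzymes were examined after the values above were seen, so they are given as values only. The electron carrier that takes over from IVD, ACADSB and ACAD8 is made of ETFA and ETFB and hands its electrons to ETFDH. ETFA stood at 195 normalised CPM in dog and 38.8 in armadillo, 5.04-fold higher in dog (95% interval 4.59 to 5.54), and ETFDH at 159 and 21.6, 7.36-fold higher (95% interval 6.52 to 8.34). ETFB stood at 131 in dog and 227 in platypus and is not listed in armadillo. ETFDH was listed at 0 in platypus.

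The carboxylases MCCC1 with MCCC2 and PCCA with PCCB carry biotin. SLC5A6, a transporter of biotin and pantothenate, ranked 27 by reads among dog genes and reached 1467 normalised CPM there, beside 116 for armadillo and 6.95 for platypus, 12.6-fold higher in dog than in armadillo (95% interval 12.0 to 13.3). The other biotin carboxylases differed by gene. ACACA, of fatty acid synthesis, stood at 178 in dog and 70.7 in armadillo, ACACB at 8.66 and 353, and PC, of pyruvate, at 12.1 and 18.0. OXCT1, which uses ketone bodies, was 5.31-fold higher in dog than in armadillo (95% interval 4.87 to 5.79), at 239 against 45.0.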
